A study of Mus musculus with 8 samples.

Results

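The genes described here encode nuclear-encoded parts of respiratory complexes II, III, IV and V and cytochrome c. They were read in the C2C12 mouse muscle line, given either siRNA against DOR, the product of Trp53inp2, or scrambled RNA. Members were taken by symbol: Sdha, Sdhb, Sdhc, Sdhd, Cyc1, Cycs, and every gene whose symbol starts with Uqcr, Cox5, Cox6b, Cox6c, Cox7b, Cox7c or Atp5. Only probe sets annotated with a single symbol counted. This gave 38 genes of the 18193 on the array: 4 of complex II, 9 of complex III, Cycs itself, 7 of complex IV and 17 of complex V. They are read by 78 probe sets, 14 genes by a single probe set and 24 by several. No probe set named Cox7b alone was found, and that gene is not analysed here.

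C2C12 is an established myoblast line that fuses into myotubes in low serum. The 4 cultures of one group carried a lentivirus with siRNA against DOR, and the 4 control cultures a lentivirus with scrambled RNA. Both groups were transduced at an moi of 100, amplified, sorted for GFP (93 to 99% positive) and kept in 5% horse serum for 4 days, per the labels' protocols. Other labels name confluent myoblasts, so the stage at harvest is not settled by them. All cultures thus come from 1 cell line. The labels call the cultures of each group biological replicates 1 to 4. Whether they stem from separate transductions or from a shared sorted pool is not stated, and p-values measure only the spread between these cultures.

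The respiratory chain passes electrons from reduced cofactors and succinate to oxygen in the inner mitochondrial membrane. Complex II takes electrons from succinate, complex III hands them from ubiquinol to cytochrome c, and complex IV passes them to oxygen. Complex V, the ATP synthase, uses the proton gradient that complexes III and IV help to build. Complex II is entirely nuclear-encoded, whereas complexes III, IV and V also hold subunits of mitochondrial DNA. The nuclear genes for these subunits are known to be active in all tissues that respire and more so as muscle cells differentiate, and nuclear respiratory factor 1 (NRF1) and ETS factors such as GABPA are known activators of many of them.

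The knockdown itself was plain in these arrays. The brighter probe set of Trp53inp2 averaged 11.35 ± 0.29 log2 units in scrambled and 9.51 ± 0.31 in DOR siRNA cultures (SD, n = 4 each), a difference of -1.83 ± 0.17 (SE, limma adjusted p = 0.00087). Array medians ran from 6.14 to 6.20 log2 units. Markers of differentiated myotubes moved in the same arrays: of 20, 11 fell and 0 rose (limma adjusted p under 0.05), and the median difference was -0.71. Their mean level lay between 11.67 and 12.09 log2 units in scrambled and between 10.67 and 11.23 in DOR siRNA arrays, and 19 of the 20 exceeded the overall probe set median, 6.18, in at least 1 group. Of 13 markers of cycling cells 9 rose and 0 fell, with mean levels of 8.77 to 8.99 against 9.38 to 9.57. Among all 18193 genes 263 were called lower and 566 higher. The array of DOR siRNA 2 stood apart in control transcripts probed at both ends. Its 3′ minus 5′ difference was the highest of the 8 arrays in 4 of 5 controls, for Gapdh 0.07 against -0.16 to -0.09 log2 units and for pyruvate carboxylase 1.67 against 0.80 to 1.28. In such bulk cultures, fewer cells of a type and less RNA per cell cannot be told apart.

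The respiratory genes differed little between the groups. None of the 38 members passed the limma test at an adjusted p under 0.05 by the brightest probe set, where 4.56% of all genes did. None of the 78 member probe sets passed either, against 3.22% of all probe sets. In the unpaired fit a single member, Atp5md, had an unadjusted limma p under 0.05, while 18.0% of all genes did. The 2 groups of 4 values did not overlap in 1 of 38 members, Atp5k, against 12.2% of all genes. With cultures paired by replicate number the count remained 0, although 8.25% of all genes were then called. Without DOR siRNA 2 the count was 0 as well, and the median difference of the members was -0.015 in place of -0.031.

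Absence of a call is not by itself a sign of equal levels, so the intervals of the differences are given. For all 38 members the whole 95% interval of the difference between DOR siRNA and scrambled lay inside 1.5-fold in either direction (0.58 on the log2 scale). The same held for 88.4% of all genes, and for 84.0% of genes at or above the median signal. Most members read far above that median, and no comparison with genes of like brightness was made. The lowest bound was a ratio of 0.681 for Atp5g1 and the highest a ratio of 1.34 for Uqcrh. Each interval stands on its own, with no adjustment for their number. The median size of a member's difference, regardless of sign, was 0.059 log2 units, against 0.090 over all genes and 0.11 over genes at or above the median signal. Standard errors ran from 0.068 to 0.15 log2 units.

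**Figure D1:**
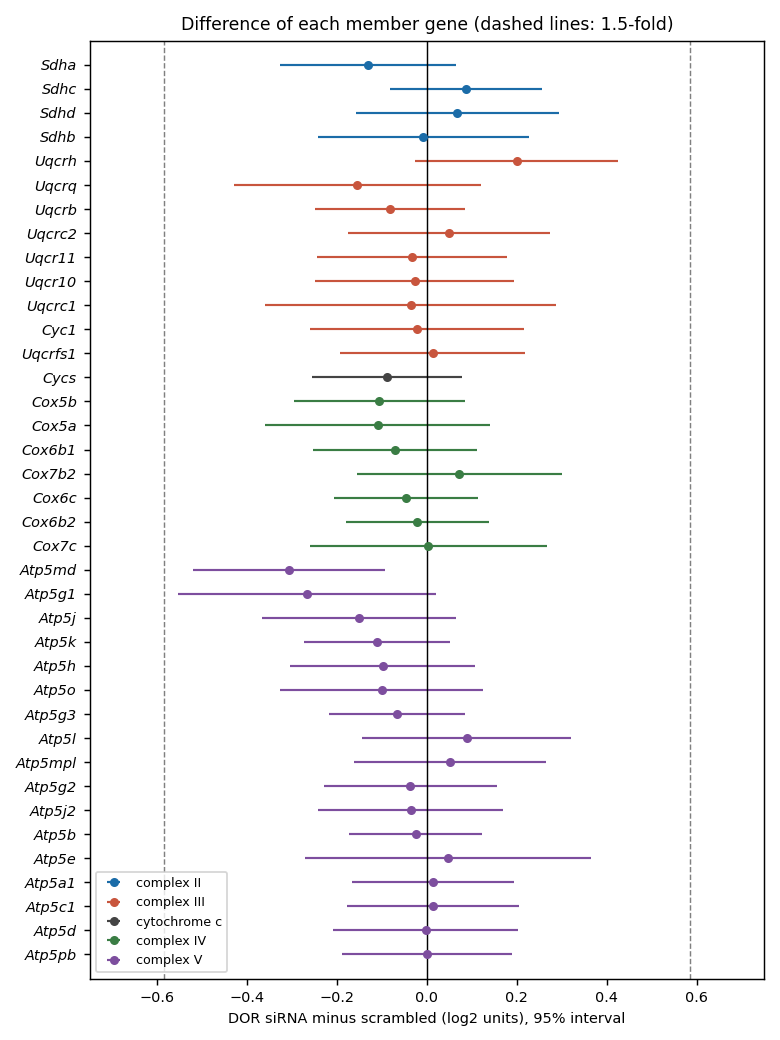
The horizontal axis gives the difference DOR siRNA minus scrambled in log2 units for the brightest probe set of each of the 38 members, with its 95% interval from limma (4 arrays a group), coloured by complex and ordered by p within it. All intervals lie between the dashed lines at 1.5-fold, and only that of Atp5md does not reach 0.

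Signs were mixed. Of the 38 differences 25 were below 0 and 13 above, or 65.8% below, where 45.1% of all genes were below 0. The median was -0.031 over the members and 0.015 over all genes. It was 0.03 for complex II, -0.03 for complex III, -0.05 for complex IV and -0.04 for complex V, and cytochrome c differed by -0.09. These medians are descriptions without a test. Some of their signs depended on single arrays: without scrambled 2 the median of all members was 0.013, of complex III 0.05 and of complex V 0.013. For complex III it was also above 0 without scrambled 1, DOR siRNA 2 or DOR siRNA 4 (0.001, 0.005 and 0.021). For complex II the median was 0.086 without scrambled 2 but lay below 0 when scrambled 4 (-0.036) or DOR siRNA 1 (-0.025) was left out. Complex IV and cytochrome c lay below 0 with any 1 array left out.

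A pair of promoter motifs, which the choice of members did not use, was examined next. RefSeq windows of 300 bases (build GRCm38.p6), from 250 before to 50 after the start, were at hand for 30 of the 38 members. The NRF1 core, GCGCA and GCGC with 1 base of any kind between them, read on both strands, occurred in at least 1 window of 9 of the 30 genes, or 30.0%, and in 5.19% of all 27025 genes with a window (7.17% of protein-coding genes). The ETS core CCGGAAG, also on both strands, occurred in 11 of 30, or 36.7%, against 9.93% of all genes (12.9% of protein-coding genes). One form of the NRF1 core reads the same on both strands and so matches on both at the same place. The counts above are of genes and do not change with this. In the members' windows no match to one motif overlapped a match to the other. The 9 with the NRF1 core were Atp5c1, Atp5g2, Atp5g3, Atp5h, Atp5k, Atp5o, Sdha, Sdhd and Uqcrc1, and 3 of them, Atp5h, Atp5k and Sdhd, held both. Of the 30 members 17 held at least 1 of the motifs and 13 held neither. Members with and without the NRF1 core differed between groups of cultures by medians of -0.066 and -0.025. Their differences ran from -0.131 to 0.068 with that core and from -0.307 to 0.199 without it. Members with and without the ETS core had medians of -0.034 and -0.036. Their ranges were -0.307 to 0.199 and -0.266 to 0.072. Whether members with and without a motif differ was not tested. A match describes letters and is not a shown binding site. The windows of 5 members are shown 5′ to 3′ on the strand of the gene, all on the minus strand, with matches in capitals. Atp5md and Uqcrh had the lowest and the highest difference, Atp5k was the one member without overlap between groups, and Sdha and Sdhd are the complex II genes with NRF1 cores, 3 of them in Sdha.
Atp5md, chr19:47090598-47090897: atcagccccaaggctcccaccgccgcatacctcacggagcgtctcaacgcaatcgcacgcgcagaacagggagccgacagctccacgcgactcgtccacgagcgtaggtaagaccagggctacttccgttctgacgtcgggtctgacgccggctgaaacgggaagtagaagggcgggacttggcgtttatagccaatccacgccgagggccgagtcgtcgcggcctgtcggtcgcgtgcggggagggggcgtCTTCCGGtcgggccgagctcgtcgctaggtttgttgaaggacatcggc
Uqcrh, chr4:116075021-116075320: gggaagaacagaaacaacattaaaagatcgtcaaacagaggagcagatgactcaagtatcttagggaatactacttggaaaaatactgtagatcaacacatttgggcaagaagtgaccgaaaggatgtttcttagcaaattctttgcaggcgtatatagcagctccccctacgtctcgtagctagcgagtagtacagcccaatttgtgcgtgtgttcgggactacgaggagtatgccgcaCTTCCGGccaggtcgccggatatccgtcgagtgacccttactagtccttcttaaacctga
Atp5k, chr5:108434350-108434649: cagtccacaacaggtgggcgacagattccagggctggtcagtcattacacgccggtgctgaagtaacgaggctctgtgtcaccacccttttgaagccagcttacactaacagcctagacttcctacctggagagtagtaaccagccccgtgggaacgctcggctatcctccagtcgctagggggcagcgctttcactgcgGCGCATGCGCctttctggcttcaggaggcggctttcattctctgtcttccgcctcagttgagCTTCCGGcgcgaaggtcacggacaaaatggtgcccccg
Sdhd, chr9:50603800-50604099: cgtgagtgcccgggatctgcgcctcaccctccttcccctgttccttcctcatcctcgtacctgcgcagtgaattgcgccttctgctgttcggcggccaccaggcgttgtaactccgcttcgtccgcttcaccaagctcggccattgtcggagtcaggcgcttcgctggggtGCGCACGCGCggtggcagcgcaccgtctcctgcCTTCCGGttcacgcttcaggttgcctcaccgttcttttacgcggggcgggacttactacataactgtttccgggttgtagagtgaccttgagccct
Sdha, chr13:74350191-74350490: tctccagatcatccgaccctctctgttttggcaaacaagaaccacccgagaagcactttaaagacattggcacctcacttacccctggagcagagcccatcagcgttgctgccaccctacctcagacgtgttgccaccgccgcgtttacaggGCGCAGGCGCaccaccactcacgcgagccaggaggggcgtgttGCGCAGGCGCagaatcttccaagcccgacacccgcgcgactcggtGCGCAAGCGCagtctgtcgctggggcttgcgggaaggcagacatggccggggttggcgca

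In complex II, Sdha encodes the flavoprotein that oxidises succinate. It read 11.69, 11.70, 11.56 and 11.39 log2 units in scrambled 1 to 4 and 11.57, 11.41, 11.45 and 11.38 in DOR siRNA 1 to 4. Scrambled 3 and 4 lay within the knockdown range and scrambled 1 and 2 above it (difference -0.13 ± 0.09, SE, limma adjusted p = 0.57). Sdhb carries the iron-sulphur clusters and read 11.68, 11.86, 11.55 and 11.41 against 11.80, 11.61, 11.56 and 11.50. Its means of 11.62 and 11.62 were nearly the same (-0.01 ± 0.11, limma adjusted p = 0.99). The membrane anchors Sdhc and Sdhd, which hold the ubiquinone site, lay slightly on the other side. Sdhc read 11.48, 11.49, 11.43 and 11.39 against 11.63, 11.40, 11.51 and 11.59 (0.09 ± 0.08, limma adjusted p = 0.69). Sdhd read 11.64, 11.79, 11.60 and 11.43 against 11.83, 11.48, 11.80 and 11.62 (0.07 ± 0.10, limma adjusted p = 0.85). In both anchors DOR siRNA 1 was the highest knockdown array and DOR siRNA 2 the lowest.

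In complex III the redox carriers and core proteins ran from -0.04 to 0.05. Cyc1, the cytochrome c1 that reduces cytochrome c, differed by -0.02 ± 0.11 and Uqcrfs1, the Rieske iron-sulphur protein, by 0.01 ± 0.09. The core proteins Uqcrc1 and Uqcrc2 differed by -0.04 ± 0.15 and 0.05 ± 0.10. Uqcrc2 read 11.00, 11.07, 10.92 and 11.06 with scrambled RNA and 11.37, 10.95, 10.92 and 11.02 with DOR siRNA, so that DOR siRNA 1 alone lay above the controls (limma adjusted p = 0.90). Without that array its difference was -0.05.

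The 5 small subunits of complex III spread more widely, from -0.15 to 0.20. Uqcrh, the hinge protein at the docking site of cytochrome c, read 12.38, 12.64, 12.61 and 12.80 in scrambled and 12.88, 12.69, 12.70 and 12.96 in DOR siRNA arrays. Scrambled 4 lay among the knockdown arrays and the other controls below them (0.20 ± 0.10, limma adjusted p = 0.40). Its second probe set gave a like value, 0.21 ± 0.12. Uqcrq, also a small subunit, read 12.14, 12.46, 12.13 and 11.86 against 12.20, 12.03, 11.84 and 11.91 (-0.15 ± 0.12, limma adjusted p = 0.65). Uqcrb, known for binding ubiquinone, read 14.23, 14.31, 14.18 and 14.10 against 14.21, 14.14, 14.10 and 14.05 (-0.08 ± 0.08, limma adjusted p = 0.70). In both, the groups overlapped and scrambled 2 was highest. Uqcr10 and Uqcr11 differed by -0.03 each.

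Cycs encodes the soluble carrier between complexes III and IV, which is also known to trigger apoptosis when it leaves mitochondria. It read 12.96, 13.14, 12.95 and 13.01 in scrambled and 12.96, 12.83, 12.98 and 12.94 in DOR siRNA arrays. Scrambled 2 was the highest value and DOR siRNA 2 the lowest, and the rest lay between 12.94 and 13.01 (-0.09 ± 0.08, limma adjusted p = 0.67). All 4 of its probe sets lay below 0, between -0.06 and -0.11.

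In complex IV, 5 of the 7 members are the isoforms used in most tissues. Cox5b, which binds zinc on the matrix side, read 13.31, 13.59, 13.29 and 13.31 against 13.35, 13.27, 13.22 and 13.23 (-0.11 ± 0.09, limma adjusted p = 0.65). Scrambled 2 was the highest array, and the other 3 controls, between 13.29 and 13.31, lay inside the knockdown range. Cox5a, its neighbour on the matrix side, read 13.23, 13.44, 13.11 and 12.92 against 13.13, 13.14, 13.12 and 12.86 (-0.11 ± 0.11, limma adjusted p = 0.75). Here the replicates numbered 4 were the lowest of both groups. Cox6b1, on the side of the intermembrane space, read 12.95, 13.24, 13.00 and 12.99 against 13.04, 12.98, 12.96 and 12.91 (-0.07 ± 0.08, limma adjusted p = 0.79). Cox6c and Cox7c, small membrane subunits, differed by -0.05 ± 0.07 and 0.003 ± 0.12. The brightest probe set of Cox7c averaged only 7.39 log2 units in both groups. Its other probe set averaged 5.78 in scrambled and 5.86 in DOR siRNA arrays, under the overall probe set median of 6.18.

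The other 2 members of complex IV are the testis isoforms Cox6b2 and Cox7b2, and their probe sets read under 6.18 in both groups. Cox7b2 read 3.16, 2.81, 3.30 and 3.20 against 3.17, 3.23, 3.24 and 3.12 (0.07 ± 0.10, limma adjusted p = 0.84). Cox6b2 averaged 4.67 and 4.65 log2 units. Whether either exceeds background is not given by these values. The remaining 36 members were no dimmer than that median.

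Complex V held the largest differences, in its membrane part. Atp5md, a small subunit known for holding ATP synthase dimers together, read 11.12, 11.45, 11.32 and 11.31 in scrambled and 11.18, 10.97, 10.83 and 10.99 in DOR siRNA arrays. Scrambled 1 lay under DOR siRNA 1 and the other knockdown arrays lay under all controls. The means were 11.30 ± 0.14 and 10.99 ± 0.14 (SD, n = 4 each), a ratio of 0.808 (-0.31 ± 0.10, SE, limma adjusted p = 0.13). With 1 array left out in turn it ran from -0.37 to -0.25, and the adjusted p was at least 0.10. In the fit on a mean of all probe sets per gene the limma adjusted p of Atp5md, which has 1 probe set, was 0.082. Atp5k, subunit e, also of the dimer interface, read 12.48, 12.58, 12.50 and 12.49 against 12.48, 12.47, 12.30 and 12.36 (-0.11 ± 0.07, limma adjusted p = 0.56). Its groups separated only in the third decimal. The membrane subunits Atp5l (0.09 ± 0.11) and Atp5mpl (0.05 ± 0.10) lay above 0 and Atp5j2 (-0.04 ± 0.09) below.

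The c ring of complex V, which turns as protons pass, is built from 1 mature protein made from 3 genes, Atp5g1, Atp5g2 and Atp5g3. Atp5g1, known as the gene of the 3 that varies most with demand, read 12.04, 12.20, 11.91 and 11.55 in scrambled and 11.81, 11.65, 11.70 and 11.48 in DOR siRNA arrays. Scrambled 4 lay within the knockdown range, and the other controls above it (-0.27 ± 0.13, limma adjusted p = 0.37). Each knockdown culture read lower than its same-numbered control. With cultures paired by number the limma p of Atp5g1 was 0.017 unadjusted and 0.14 adjusted. Without scrambled 4 its difference was -0.39 with a limma adjusted p of 0.057, the smallest of any member under any alternative. Atp5g2 and Atp5g3 differed by -0.04 ± 0.09 and -0.07 ± 0.07. Whether Atp5g1 differs from the other two genes was not tested.

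The catalytic head of complex V held smaller differences, from -0.03 to 0.05, and the peripheral stalk ran from -0.15 to 0.0004. The F1 subunits Atp5a1 and Atp5b, which form the catalytic hexamer, differed by 0.01 ± 0.08 and -0.03 ± 0.07, and Atp5c1, the turning shaft, by 0.01 ± 0.09. Atp5d and Atp5e of the central stalk differed by -0.003 ± 0.09 and 0.05 ± 0.14. In the peripheral stalk Atp5j, coupling factor F6, read 12.79, 13.05, 12.76 and 12.59 against 12.72, 12.60, 12.68 and 12.58 (-0.15 ± 0.10, limma adjusted p = 0.54). Scrambled 4 lay within the knockdown range and the other controls above it. Atp5o, Atp5h and Atp5pb of the same stalk differed by -0.10 ± 0.10, -0.10 ± 0.09 and 0.0004 ± 0.09.

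**Figure D2:**
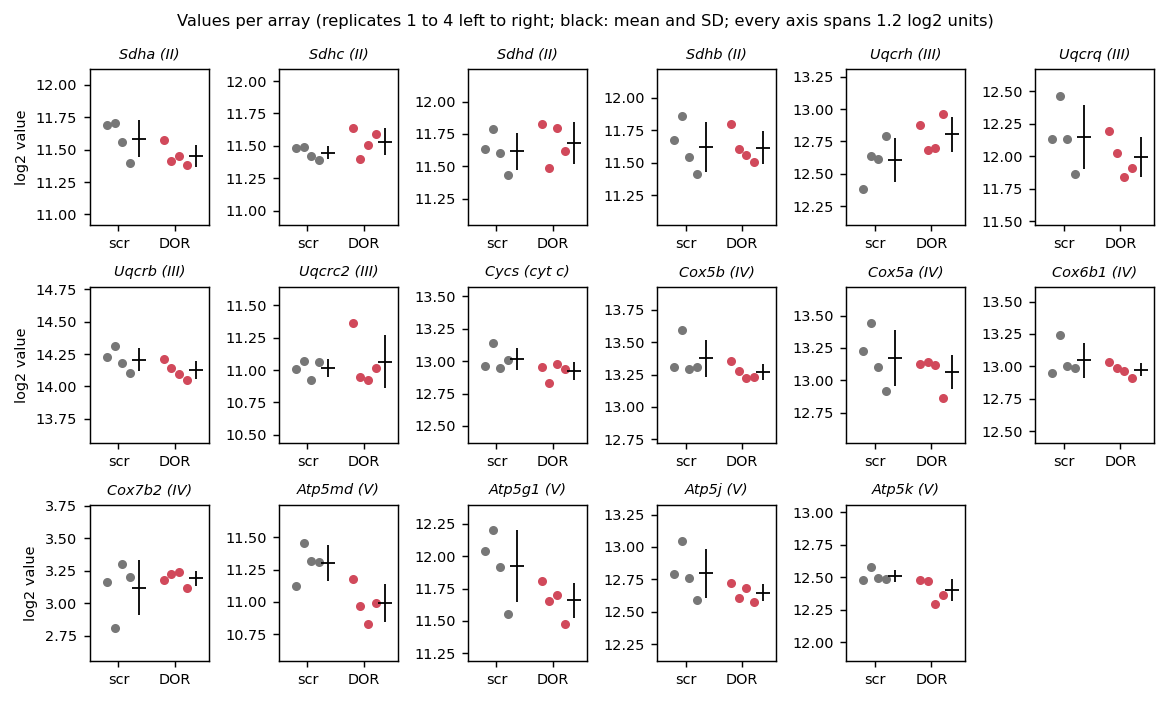
Each panel gives the log2 value of 1 member in the 8 arrays (scr, scrambled; DOR, DOR siRNA; replicates 1 to 4 from left to right) with the group mean and SD in black, for up to 4 members of each complex with the smallest p. The groups overlap in every panel but that of Atp5k, where they meet near 12.48.

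Probe sets of the same gene gave similar values. Among 24 genes with several probe sets the differences spanned a median of 0.067 log2 units and at most 0.22. In 17 genes all signs were alike, and in the other 7, whose probe sets lay on both sides of 0, no probe set had an unadjusted limma p under 0.05. For 21 genes with at least 2 probe sets no dimmer than 6.18 the largest span was 0.14. When all probe sets of a gene were averaged instead, the difference was -0.16 for Atp5g1, -0.07 each for Cox5a and Cox5b, 0.04 for Sdhc and 0.01 for Sdhd. The dimmer probe set of Atp5g1 averaged 3.39 log2 units in scrambled and 3.33 in DOR siRNA arrays, under 6.18, and differed by -0.06. By their suffix, the brightest probe sets of 8 members (Uqcrq, Cox5b, Cox7c, Atp5j2, Atp5e, Atp5c1, Atp5d and Atp5pb) may also read related transcripts, and their values are uncertain to that extent.

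The members varied together between cultures of the same group. In the scrambled group 32 of 38 members, 84.2%, had their highest value on scrambled 2, which was the highest array for 30.5% of all genes. In the knockdown group 30 of 38 members, 78.9%, were highest on DOR siRNA 1, against 19.2% of all genes. In 28 members both held, or 73.7%, against 9.29% of all genes. The mean deviation of the members from their scrambled means was 0.14 log2 units on scrambled 2 and -0.03, -0.04 and -0.07 on scrambled 1, 3 and 4. It was 0.07 on DOR siRNA 1 and -0.08, -0.06 and -0.07 on DOR siRNA 2, 3 and 4. The range over the scrambled arrays was 0.21, and the difference between the group means was -0.04. Over all genes these were 0.02 and 0.02. A range of single arrays and a difference of means are unlike measures, so no conclusion is drawn from their sizes.

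**Figure D3:**
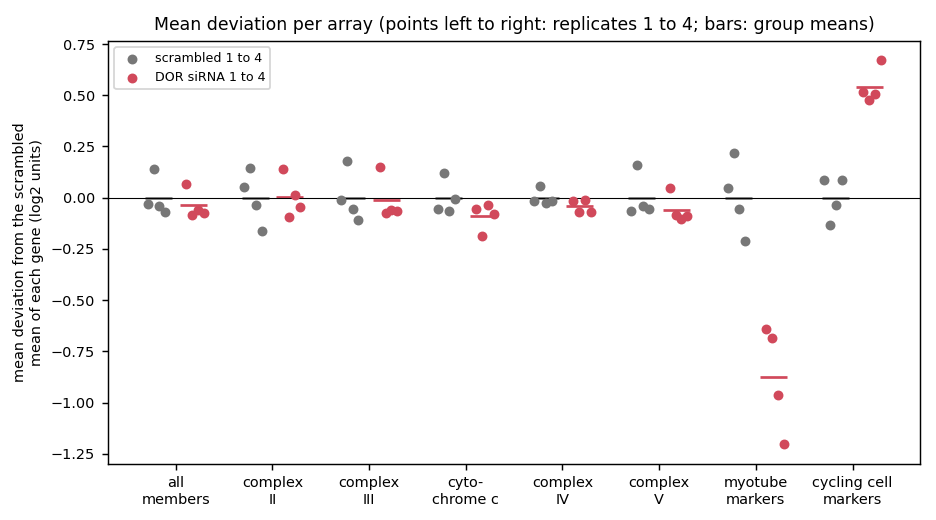
Points give, for each array, the mean over the genes of a set of the deviation from each gene's scrambled mean, in log2 units, and bars the group means. For complexes II and III the 4 knockdown arrays lie within the scrambled range and for the other complexes and all members the groups overlap, while they lie below the scrambled arrays for the 20 myotube markers (-1.20 to -0.64) and above for the 13 cycling cell markers (0.47 to 0.67).

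The lowest control was not the same for all members. Scrambled 4 was the lowest scrambled array for 19 members, among them all 4 of complex II, the redox carriers and Uqcrc1 of complex III, and Atp5g1. Scrambled 1 was the lowest for 12, of which 9 belong to complex V: Atp5md, Atp5k, Atp5h, Atp5g3, Atp5l, Atp5mpl, Atp5j2, Atp5e and Atp5pb. Over all genes scrambled 4 was lowest in 29.9% and scrambled 1 in 22.8%. Myotube markers as a set shared some extremes with the members' mean. They were highest of the controls on scrambled 2 (0.22) and lowest on scrambled 4 (-0.21). Of the knockdown arrays they were highest on DOR siRNA 1 (-0.64). Their lowest knockdown array was DOR siRNA 4 (-1.20), while that of the members was DOR siRNA 2 (-0.08). The part of these markers in the members' pattern was not tested. Scrambled 2 was also the highest control for the mean of the outside subunits (0.28), assembly factors (0.17) and regulators (0.20) described further on, and DOR siRNA 1 the highest knockdown array in each (0.07, 0.01 and -0.10). The SD among scrambled arrays exceeded the size of the difference between groups in 32 of 38 members, and the share over all genes was not counted. The median of this SD was 0.14 log2 units over the members and 0.13 over all genes.

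**Figure D4:**
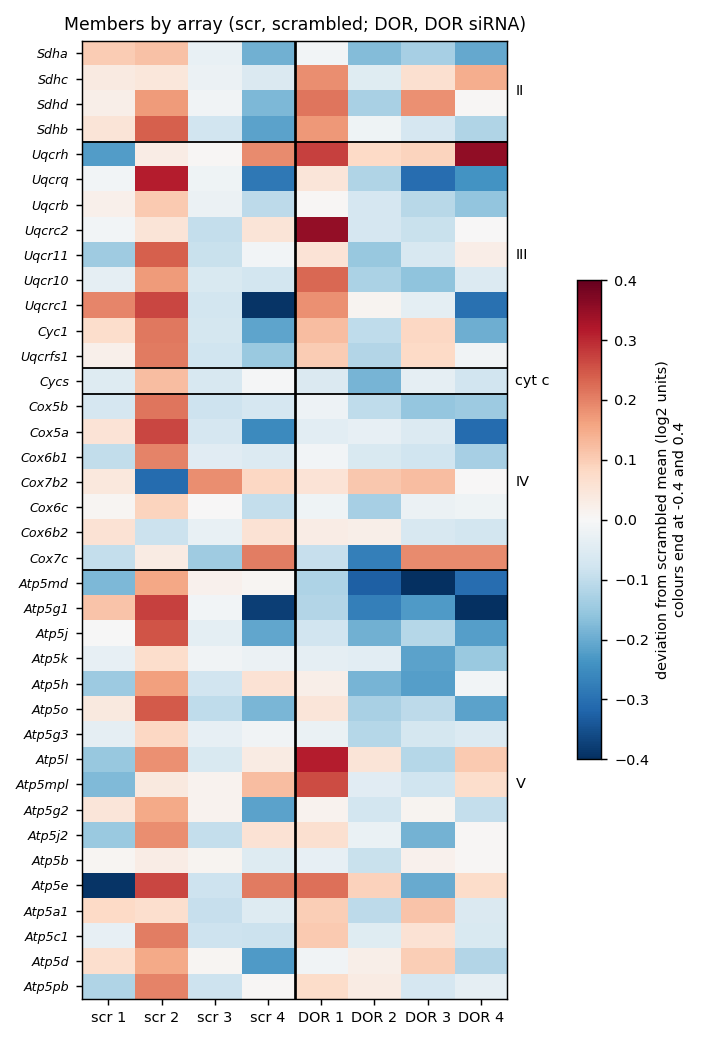
Rows are the 38 members by complex and columns the 8 arrays; the colour is the deviation from the gene's scrambled mean in log2 units. Scrambled 2 and DOR siRNA 1 stand out as the arrays with mostly higher values, and no block of rows separates the 4 left from the 4 right columns.

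Genes of the same complexes outside the membership rule ran from -0.90 to 0.23. Of 13 further genes, subunits of complex IV, the complex V inhibitor Atpif1 and the testis cytochrome c, none passed the limma test (4.56% of all genes did). At an unadjusted p under 0.05 there were 3 higher and 1 lower, where 18.0% of all genes had such a p, and the median was -0.015. Those with the smallest p were Cox4i2 (0.23 ± 0.08, limma adjusted p = 0.18) and Cox8b (-0.56 ± 0.20, limma adjusted p = 0.20). Cox4i2, an isoform known for its response to low oxygen, lay under 6.18 in both groups. The other 2 with an unadjusted p under 0.05 were Cox6a1 and Atpif1. Cox6a1, the isoform of most tissues (0.19 ± 0.08, limma adjusted p = 0.26), was higher in all knockdown arrays than in any control. Atpif1 differed by 0.23 ± 0.10 (limma adjusted p = 0.28). As means over their probe sets Cox6a1 and Atpif1 differed by 0.24 and 0.11 (limma adjusted p = 0.0895 and 0.445). The isoforms Cox8b, Cox6a2 and Cox7a1 are typical of heart and skeletal muscle. Cox8b read 10.56, 11.04, 10.18 and 9.91 in scrambled and 10.13, 9.74, 9.83 and 9.73 in DOR siRNA arrays, and passed without scrambled 4 (-0.73, limma adjusted p = 0.045). Cox6a2 read 10.92, 11.33, 10.43 and 9.01 against 10.12, 10.23, 9.25 and 8.51, lower in each knockdown culture than in its same-numbered control. It did not pass the unpaired limma test (-0.90 ± 0.48, adjusted p = 0.43) but passed the limma fit with cultures paired by number (adjusted p = 0.0046). Cox7a1 read 7.56, 8.51, 6.87 and 6.40 against 7.76, 7.17, 6.93 and 6.46 (-0.25 ± 0.40, limma adjusted p = 0.85), and it was higher in the knockdown culture than in the same-numbered control except in replicate 2. The subunits of mitochondrial DNA are not analysed here.

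Assembly factors of complexes II to V and cytochrome c gave 0 calls among 35 genes (4.56% of all genes were called). At an unadjusted limma p under 0.05 there were 3 lower and none higher, where 18.0% of all genes had such a p, and the median was -0.030. Cox15, needed to make the haem A of complex IV, read 9.01, 9.17, 8.87 and 8.58 in scrambled and 8.57, 8.61, 8.42 and 8.43 in DOR siRNA arrays. Scrambled 4 lay under DOR siRNA 2 (-0.40 ± 0.12, limma adjusted p = 0.098), and Cox15 passed with cultures paired by number (limma adjusted p = 0.030) and without scrambled 4 (-0.51, limma adjusted p = 0.016). Ttc19, a factor of complex III, was lower in all knockdown arrays than in any control (-0.29 ± 0.09, limma adjusted p = 0.12), with a mean over its probe sets of -0.14. Among 11 known regulators of these genes none passed the limma test and 0 had an unadjusted p under 0.05, against 4.56% and 18.0% of all genes. The coactivator Ppargc1b (-0.20 ± 0.10, limma adjusted p = 0.38) and the nuclear receptor Esrrg (-0.95 ± 0.51, limma adjusted p = 0.43) had the smallest p. Esrrg, whose mean over the 8 arrays lay under 6.18, read 7.01, 7.22, 6.50 and 4.67 against 5.90, 6.06, 5.22 and 4.40, and it passed with cultures paired by number (limma adjusted p = 0.0095) and without scrambled 4 (-1.51, limma adjusted p = 0.034). Over its 3 probe sets the mean difference of Esrrg was -0.35 (limma adjusted p = 0.31). Nrf1 (-0.13 ± 0.08) and Gabpa (-0.08 ± 0.08), named for the motifs above, did not pass, and as means over their probe sets they differed by -0.01 and -0.21.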

How the data were processed

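The deposited values are log2 expression values per probe set of 1-colour Affymetrix arrays, and the submitters' processing notes name RMA as how the authors made them; 25 ng total RNA was amplified per array, per the labels' protocols. RMA makes array distributions alike, so a shift of all transcripts would not show, and low signals are compressed. Whether the high signals of most members are compressed as well was not tested. The version of RMA is not given in the sources used. The number of arrays limits the precision.

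Of the probe sets 64 were controls and 45037 were tested. Platform annotation gave 1 symbol to 34945, several to 932 and none to 9160, and 34741 of the first matched RefSeq gene identifiers. A gene is represented by the brightest of its probe sets, by the mean of all 8 arrays. Groups were compared with limma 3.58.1 (lmFit, eBayes, group only) in R 4.3.3, with Benjamini-Hochberg adjustment over all probe sets, two-sided; an adjusted p under 0.05 is a call. Each difference subtracts scrambled from DOR siRNA, with model SE and 95% intervals from the moderated fit. The fit was tested on simulated data. Promoter windows are RefSeq's.

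Members and lists were chosen with earlier results of these data known. Array values and full statistics went to the 4 members of each complex with the smallest p (all where fewer); in other lists, to called genes or the 2 with the smallest p. Cox6a1, Cox6a2, Cox7a1, Atpif1, Nrf1 and Gabpa were named after their values were seen, and the motifs and the 1.5-fold interval were chosen after seeing the data. Deviations of same-numbered cultures from their group means correlated at 0.142 to 0.468, each above 0.1. A fit with these numbers, which the labels give to both groups, as a block was therefore run as an alternative. The main fit, with its SE and intervals, did not pair the cultures. Differently numbered cultures correlated at -0.394 to 0.265, the highest being scrambled 2 with DOR siRNA 1, so the pairing is not clear-cut. Alternatives were this block, each array left out, cyclic loess, centred medians, a variance trend with robust prior, dim probe sets left out and a mean of all probe sets per gene. Figures used matplotlib 3.10.9.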

Additional observations from a re-analysis of the deposited data

Results flagged for a closer look

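In 4 of 76 groups of 4 values (38 members, both groups of cultures) 1 array stood apart from the rest by Dixon's criterion, and chance alone marks about 5% of groups. Uqcr10 read 11.52 on scrambled 2 against 11.27 to 11.31 on the other scrambled arrays, and Cox5b read 13.59 on scrambled 2 against 13.29 to 13.31. Cox5a read 12.86 on DOR siRNA 4 against 13.12 to 13.14 on the other knockdown arrays, and Cox6c read 13.00 on DOR siRNA 2 against 13.11 to 13.12.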

How the results depend on the processing

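No member gene was called under any of the 14 alternatives, and no member probe set under those that keep probe sets apart; over 530 gene values the smallest limma adjusted p was 0.057. The number of members whose 95% interval lay inside 1.5-fold, a measure added after seeing the data, was 36 to 38 of 38 with 1 array left out and 36 of 36 without dim probe sets. The sign of the difference was the same under every alternative for 21 members, 17 of them lower and 4 higher. The median over members ran from -0.074 (without scrambled 4) to 0.013 (without scrambled 2), and no median moved by more than 1 SD among the scrambled arrays. With the replicate block, 1 subunit outside the rule, 1 assembly factor and 1 regulator were called lower; with 1 array left out these counts were 0 to 1 each, the calls coming without scrambled 4. The block changed no other call among the members and these 3 lists; it called 15 myotube markers lower and 11 cycling markers higher, against 11 and 9 without it. The number of arrays limits what can be seen: the median interval reached 0.21 log2 units to either side.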
